A study of Mus musculus with 10 samples.

Results

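The genes described here are 9 chemokine ligands, Ccl8, Ccl9, Ccl6, Ccl2, Ccl3, Ccl4, Cxcl13, Cxcl12 and Cxcl10, and Saa3, which encodes serum amyloid A 3. They were found by gene symbol among the 12488 probe sets of the MG_U74Av2 oligonucleotide array, where they account for 12 probe sets and 10 of the 8251 genes with a symbol of their own. A probe set is a group of short oligonucleotides whose brightness is summarised as 1 intensity for a transcript. Ccl8, Ccl9, Cxcl13 and Saa3 were chosen by their higher intensity in tumours in these data. Their values in tumours are therefore given as a description with no test. Of the other 6 genes, only Ccl6 and Ccl3 were bright enough for the main test. The rest have values from a fit that includes dim probe sets.

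The tumours were 6 advanced thymic tumours from IkL/L mice, which are homozygous for a hypomorphic mutation of Ikaros, a DNA-binding regulator of lymphocyte development whose gene is Ikzf1. They were set against 2 samples of unfractionated thymocytes from IkL/L mice and 2 such samples from wild-type (WT) mice, all taken at 3 weeks of age on the C57Bl6 background and called IkL/L and WT samples where values are given. All 6 tumours and both IkL/L thymocyte samples thus carry the same mutation, and the age of the mice with tumours is not given in the labels. Whole tumours were compared with thymocyte preparations. In bulk RNA of this kind, fewer cells of a type and less RNA per cell cannot be told apart. Nothing in the labels says how the samples of a group relate to each other beyond their being separate samples, so p-values measure the spread between these samples.

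Array medians ran from 79.75 to 113.25 in intensity, and between 15.43% and 24.22% of an array's values lay at or under a floor of 16, to which lower values were raised before log2 was taken. The summed intensity of 12 thymocyte markers was 29749.5 to 46012.7 in the tumours, 60377.2 to 66563.9 in IkL/L thymocytes and 63550.5 to 70594.5 in WT thymocytes, and none of these markers lay at the floor on every array. Of the 12, 5 (Cd4, Cd8a, Rag1, Rag2 and Dntt) had all tumours below all thymocyte arrays and 1 (Ptcra) had them all above. Among all non-control probe sets these shares were 3.64% below and 3.36% above. Cd3d, Cd3e, Cd3g and Thy1 differed from WT by -0.02, -0.24, -0.16 and -0.35 on the log2 scale, none with an adjusted p under 0.05 (limma). Ikzf1 read 150.6 to 387.6 in the tumours, 263.9 and 559.5 in the IkL/L samples and 400.6 and 625.9 in the WT samples on its brighter probe set (adjusted p = 0.170 between tumours and WT thymocytes, limma). The IkL/L values overlapped those of the tumours and of the WT samples, both WT values were above all tumours, and where these probes lie relative to the mutation was not examined. The scanner records place tumour 6 in the same chip lot as all 4 thymocyte arrays and tumours 1 to 5 in another lot.

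Chemokines are small secreted proteins that attract leukocytes by binding receptors on their surface. CC and CXC chemokines differ in the spacing of their first cysteines. Cxcl12 and Ccl25 guide thymocytes within the normal thymus, while many CC chemokines are made by activated macrophages and stromal cells and draw in monocytes and T cells. Serum amyloid A proteins are acute-phase reactants, and mouse Saa3 is the one made mainly outside the liver, by macrophages among other cells.

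The DNA just upstream of the annotated transcription start is shown for the 4 genes picked for their rise, and for Cxcl10, an inflammatory chemokine that was dim in the tumours, for contrast. The sequences are from RefSeq on GRCm38.p6, whose promoter table held 8 of the 10 genes. Each runs 5′ to 3′ on the strand of the gene for the 160 bases before the start. Ccl8 lies at chr11:82115025-82115184 on the plus strand, Ccl9 at chr11:83578637-83578796 on the minus strand, Cxcl13 at chr5:95956779-95956938 on the plus strand, Saa3 at chr7:46715677-46715836 on the minus strand and Cxcl10 at chr5:92348890-92349049 on the minus strand. Capitals mark letters that match a searched motif, as named after the sequences.
Ccl8: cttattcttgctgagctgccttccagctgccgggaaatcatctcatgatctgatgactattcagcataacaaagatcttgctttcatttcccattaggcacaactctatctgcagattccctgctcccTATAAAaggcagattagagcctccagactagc
Ccl9: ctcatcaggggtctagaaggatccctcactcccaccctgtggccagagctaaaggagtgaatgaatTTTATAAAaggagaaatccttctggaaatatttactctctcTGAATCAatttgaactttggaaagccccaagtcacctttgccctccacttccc
Cxcl13: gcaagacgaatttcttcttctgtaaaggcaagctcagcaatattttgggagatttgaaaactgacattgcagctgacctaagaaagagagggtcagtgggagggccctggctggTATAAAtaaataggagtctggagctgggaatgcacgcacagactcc
Saa3: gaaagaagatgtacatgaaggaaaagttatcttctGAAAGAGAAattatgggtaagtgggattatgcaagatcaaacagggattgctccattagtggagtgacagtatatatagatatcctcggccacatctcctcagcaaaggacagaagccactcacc
Cxcl10: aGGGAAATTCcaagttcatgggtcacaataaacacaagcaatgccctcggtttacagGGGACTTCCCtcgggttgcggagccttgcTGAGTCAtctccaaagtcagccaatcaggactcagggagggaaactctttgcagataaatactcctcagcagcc
The motifs were searched on both strands in the 250 bases before and 50 bases after the start. The letters TATAAA were found in Ccl8, Ccl9 and Cxcl13 and in 14.16% of the 27025 promoters of the table. An NF-κB pattern, GGGANNTNC, was in Cxcl10 alone among the 8 genes, and in 14.89% of all promoters. An interferon-type pattern, GAAANNGAA, was in Saa3, Ccl3 and Cxcl10 and in 8.57% of all promoters. An AP-1 pattern, TGANTCA, was in Ccl9 and Cxcl10 and in 7.93%. A C/EBP pattern, TTNNGNAAT, was in Ccl3 and Cxcl10 and in 11.6%, and a STAT pattern, TTCNNNGAA, was in none of the 8 and in 8.47%. In Cxcl10 the C/EBP and interferon-type matches, and in Ccl9 a further match of the first pattern, lie upstream of the bases shown. Overlapping matches run together in the capitals, as do those on opposite strands in Ccl9 and in Cxcl10. No pattern was shared by all 4 picked genes.

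The 4 picked genes were higher in every tumour than on every thymocyte array of either genotype. Of the 12 probe sets of the whole group, these 4 alone had all 6 tumours above all 4 thymocyte arrays, against 3.36% of the 12422 probe sets that are not controls. The 4 were chosen for their rise on these arrays, so their count cannot be read against that share. All 6 tumours lay below all 4 thymocyte arrays for 1 of the 12, the Cxcl12 probe set at the floor on every array, where values have no order, against 3.64% of all probe sets. On none of the 4 thymocyte arrays did any of the 4 picked genes exceed the array's median, so they entered the tests through the tumours alone.

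**Figure D1:**
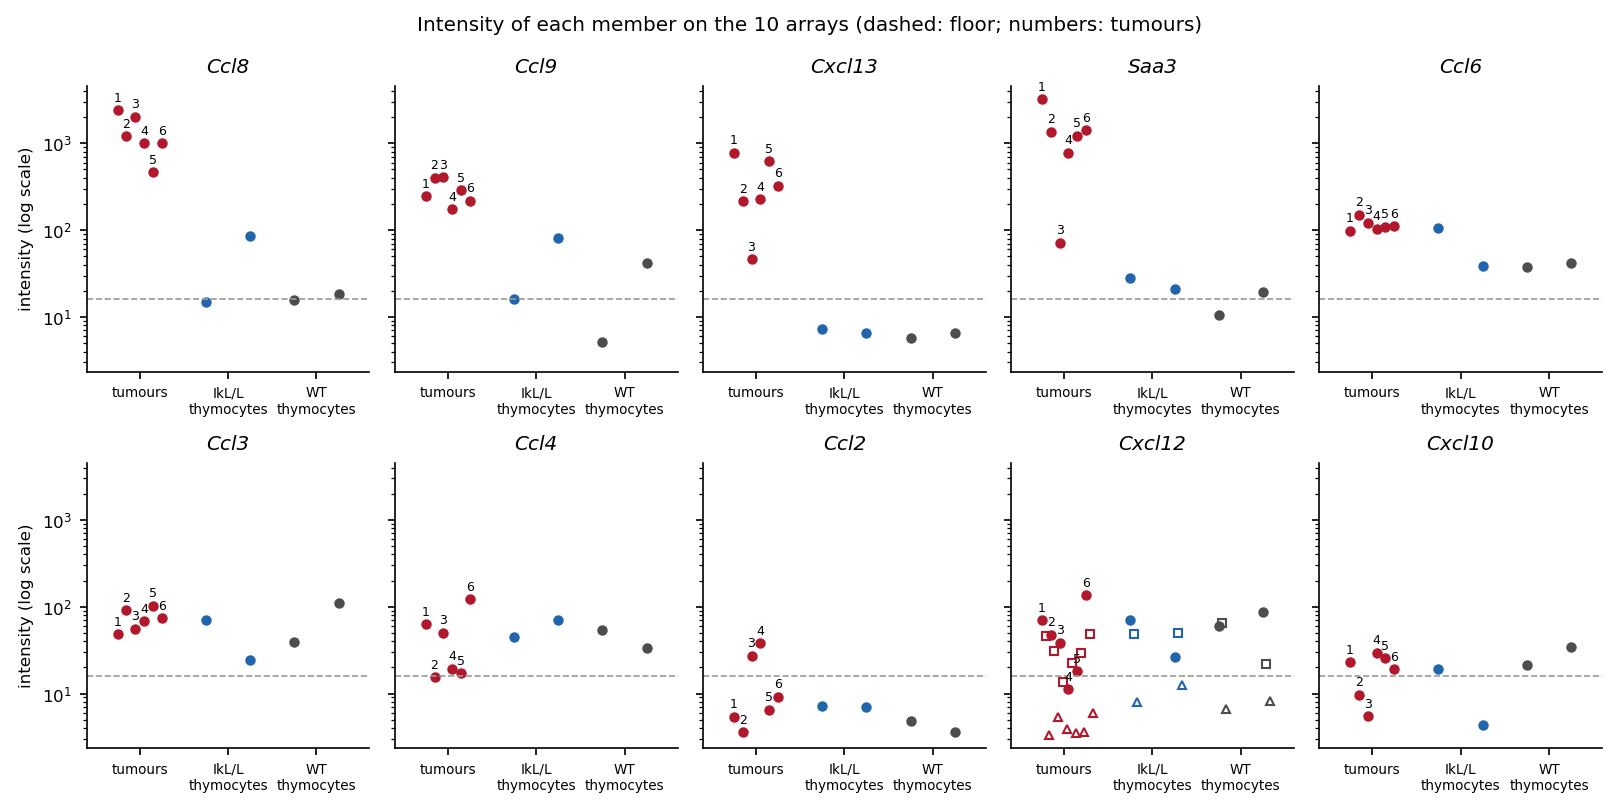
Intensity of the 10 genes on the 10 arrays (log scale), 1 panel per gene and 1 point per array, with the tumours numbered, followed by IkL/L and WT thymocytes; the dashed line is the floor of 16, and the open squares and triangles are the other 2 probe sets of Cxcl12. The 6 tumours sit above all thymocytes for Ccl8, Ccl9, Cxcl13 and Saa3, and do not do so for the other genes.

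Ccl8, a CC chemokine that attracts monocytes and T cells, had intensities of 463.0 at the lowest, 1109 at the median and 2396.3 at the highest in the tumours, against 14.7 and 84.9 in the IkL/L samples and 15.5 and 18.5 in the WT samples. Tumours 1 and 3 were the highest and tumour 5 the lowest, and even tumour 5 stood clear of the brightest thymocyte array. The means were 1349 ± 720 in tumours (SD, n = 6), 49.8 ± 49.6 in IkL/L thymocytes and 17.0 ± 2.12 in WT thymocytes (n = 2 each). On the log2 scale tumours exceeded WT thymocytes by 6.10, or 68.7-fold, with 1 WT array at the floor. Against IkL/L thymocytes the difference was 5.0, or 32.1-fold, with 1 IkL/L array at the floor, and it was 3.80 without the first and 6.21 without the second IkL/L array. The fold depends on how low values are treated, being 4.56 on the log2 scale above WT with a floor of 50. Tumour 6 set against WT thymocytes of its own chip lot differed by 5.87.

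Ccl9, a CC chemokine of the CCR1 ligand family in mice, had 175.4 at the lowest, 267 at the median and 410.7 at the highest in the tumours, against 16.2 and 80.3 in the IkL/L samples and 5.2 and 41.9 in the WT samples. Tumours 3 and 2 were the highest and tumour 4 the lowest, a spread of 2.34-fold. The means were 289.9 ± 97.3 in tumours (SD, n = 6), 48.3 ± 45.3 in IkL/L thymocytes and 23.6 ± 26.0 in WT thymocytes (n = 2 each). The log2 difference was 3.42 above WT, or 10.7-fold with 1 WT array at the floor, and 2.94 above IkL/L, or 7.66-fold. It was 2.72 and 4.11 above WT without the first or the second WT array, and 1.78 and 4.09 above IkL/L without the first or the second IkL/L array. Within the chip lot of tumour 6 the difference from WT was 3.07.

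Cxcl13, the chemokine that draws B cells into lymphoid follicles through CXCR5, had 46.4 at the lowest, 276.5 at the median and 778.8 at the highest in the tumours, against 7.2 and 6.5 in the IkL/L samples and 5.7 and 6.5 in the WT samples. All 4 thymocyte arrays were at the floor, whereas all 6 tumours were above it. The tumours were thus at least 16.7-fold higher than either thymocyte group, with the thymocytes placed at the floor of 16. Tumours 1 and 5 were the brightest and tumour 3 the dimmest, at 16.8-fold under tumour 1. The summed intensity of 7 B cell markers was 452.9 to 1262.9 in the tumours, 831.3 to 1319.1 in IkL/L thymocytes and 769.2 to 979.0 in WT thymocytes. None of the 5 B cell genes tested was called, near the share of all tested probe sets called (1.88% against WT and 1.42% against IkL/L).

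Saa3 had 71.8 at the lowest, 1290.05 at the median and 3239.6 at the highest in the tumours, against 27.8 and 20.9 in the IkL/L samples and 10.6 and 19.5 in the WT samples. Tumour 1 was the brightest, tumours 6, 2, 5 and 4 ran from 1429.0 to 782.6, and tumour 3 stood apart at the low end, still above every thymocyte array. The means were 1351 ± 1053 in tumours (SD, n = 6), 24.4 ± 4.88 in IkL/L thymocytes and 15.1 ± 6.29 in WT thymocytes (n = 2 each). The log2 difference was 5.62 above WT, or 49.2-fold with 1 WT array at the floor, and 5.17 above IkL/L, or 36.1-fold. Without tumour 3 these were 6.34 and 5.89, and with a floor of 50 both were 4.12. In the chip lot of tumour 6 it was 6.34 above WT.

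The tumours did not carry these 4 genes in fixed proportion. Their spread over tumours did not choose them, but they entered the 7172 tested probe sets through the tumours alone. The shares given here are therefore a description and no test. The SD of log2 intensity over the tumours was 1.88 for Saa3, above 99.53% of tested probe sets, and 1.45 for Cxcl13, above 98.27%. Both lean on tumour 3, at 71.8 against 782.6 to 3239.6 in the other tumours for Saa3. For Cxcl13 it had 46.4 against 216.6 to 778.8, and the SD without tumour 3 was not computed. It was 0.85 for Ccl8, above 88.06%, and 0.49 for Ccl9, above 65.1%. Ccl6 varied little, with an SD of 0.22, above 12.65%.

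**Figure D2:**
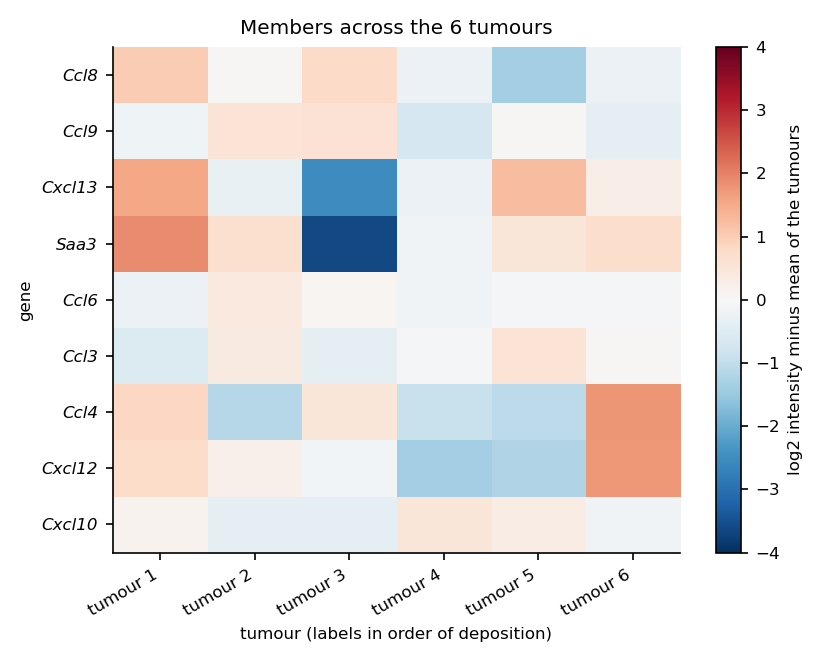
Log2 intensity of 9 genes in tumours 1 to 6, each minus the mean of that gene over the tumours (colour scale). Tumour 3 holds low values for Cxcl13 and Saa3 beside a high value for Ccl8, and Ccl2 is left out because it lay at the floor in 4 tumours.

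Of the 6 genes not picked for their rise, none was called in tumours against either thymocyte group at an adjusted p under 0.05 (limma, Benjamini-Hochberg over 7172 probe sets). Only Ccl6 and Ccl3 passed the filter on dim probe sets, which asks for an intensity above the array's median on at least 2 arrays. Ccl6 was above it on 5 tumours and 1 thymocyte array, and Ccl3 on 2 tumours and 1 thymocyte array, so neither would have passed on thymocytes alone. In each comparison 1 of these 2, Ccl6, had an unadjusted p under 0.05. Over all tested probe sets, 1.88% were called between tumours and WT thymocytes and 1.42% between tumours and IkL/L thymocytes.

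Ccl6, a macrophage and myeloid CC chemokine whose gene neighbours Ccl9 on mouse chromosome 11, had 98.3 at the lowest, 110.2 at the median and 150.7 at the highest in the tumours, against 105.9 and 38.7 in the IkL/L samples and 37.6 and 42.2 in the WT samples. All 6 tumours were above both WT arrays, but 1 IkL/L array lay among the tumours. The log2 difference was 1.53 ± 0.335 (SE) from WT thymocytes, or 2.88-fold, at an adjusted p of 0.0519 by limma. From IkL/L thymocytes it was 0.84 ± 0.335 with an adjusted p of 0.218, and it was 1.57 without the first and 0.12 without the second IkL/L array. Ccl6 passed the criterion against WT with a stricter filter (adjusted p = 0.0418) and with the 2 groups fitted alone (adjusted p = 0.0139, limma), and the adjusted p lay between 0.146 and 0.476 with a batch as a block. The stricter filter asks for at least 5 arrays, and Ccl6 was above the median on 5 tumours and 1 thymocyte array. It thus entered these tests through the tumours, where it is high, and its p-values carry that choice.

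Ccl3, a CC chemokine of macrophages and T cells, had 48.0 at the lowest, 70.75 at the median and 103.1 at the highest in the tumours, against 69.7 and 24.1 in the IkL/L samples and 39.5 and 111.3 in the WT samples. The groups overlapped, and the 2 WT arrays stood farther apart than any pair of tumours. The log2 difference was 0.10 ± 0.48 (SE) from WT, with an adjusted p of 0.949, and 0.79 ± 0.48 from IkL/L, with an adjusted p of 0.388 (limma). Without the first WT array the difference from WT was -0.65, and that from IkL/L was 1.56 without the first and 0.02 without the second IkL/L array.

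Ccl4, a close relative of Ccl3, had 15.3 at the lowest, 34.85 at the median and 121.0 at the highest in the tumours, against 45.0 and 70.0 in the IkL/L samples and 54.5 and 33.0 in the WT samples. Tumour 6 was above all thymocytes, tumours 2, 4 and 5 below them all. With no filter the log2 difference from WT was -0.25 ± 0.81 (SE), with an adjusted p of 0.956 (limma). Ccl2, the main attractant of CCR2-bearing monocytes, was at the floor on all 4 thymocyte arrays, at 7.1 and 7.0 in the IkL/L samples and 4.8 and 3.6 in the WT samples. It was above the floor in 2 tumours only, at 27.3 in tumour 3 and 38.3 in tumour 4.

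Cxcl10, the interferon-induced ligand of CXCR3, had 5.5 at the lowest, 21.05 at the median and 29.5 at the highest in the tumours, against 19.1 and 4.3 in the IkL/L samples and 21.4 and 34.1 in the WT samples. It lay at the floor in tumours 2 and 3, and the groups overlapped. The log2 difference from WT was -0.36 ± 0.28 (SE), with an adjusted p of 0.706 when no filter was set (limma).

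Cxcl12, the CXCR4 ligand made by stromal cells, was measured by 3 probe sets. The brightest had 11.3 at the lowest, 43.1 at the median and 136.5 at the highest in the tumours, against 70.4 and 26.3 in the IkL/L samples and 59.2 and 86.8 in the WT samples. Tumour 6 was above all thymocytes and tumours 4 and 5 below them all. The second probe set had 13.6 to 48.9 in the tumours, against 48.6 and 49.4 in the IkL/L samples and 65.7 and 21.6 in the WT samples. The third was at the floor on every array. The log2 difference from WT was -0.79 ± 0.83 (SE) on the brightest, with an adjusted p of 0.812, and -0.33 ± 0.52 on the second, with an adjusted p of 0.891 (limma, no filter).

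Thymocytes of the 2 genotypes were compared for all members, since no tumour enters that difference, although it shares the WT arrays with the one that picked 4 of them. Of the 6 member genes that passed the filter, 4 did so through the tumours alone, and Cxcl13, at the floor in all 4 thymocyte samples, could show no difference. Ccl6 and Ccl3, the other 2, each exceeded the array's median on only 1 thymocyte array, so they too needed the tumours to pass. Neither was called by limma. No member gene had an unadjusted p under 0.05, and over all tested probe sets 0.0139% were called, which is 1 probe set. Ccl8 differed by 1.10 ± 0.82 on the log2 scale (SE, adjusted p = 0.999), a mean set by 1 IkL/L array at 84.9, with the other at the floor. Ccl9 differed by 0.48 ± 0.72 and Saa3 by 0.45 ± 1.34. Ccl6 differed by 0.68 ± 0.41 and Ccl3 by -0.69 ± 0.59, each with an adjusted p of 0.999 (limma). The high IkL/L array for Ccl6 was the first and that for Ccl8 and Ccl9 the second, and without that array the difference turned to -0.04 for Ccl6, -0.10 for Ccl8 and -0.68 for Ccl9. With 2 arrays a group, differences of this size were not separable from the spread. That spread was estimated from all 3 groups together, so the SE and p-values also carry the spread among the tumours.

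Over the 6 tumours, 36 pairs of 9 genes were compared by Pearson correlation of log2 intensity with exact permutation over 720 pairings. Of these, 17 were positive, 2 had a p under 0.05 and none had an adjusted p under 0.05. Cxcl13 and Saa3 ran together, with r = 0.928 (two-sided exact permutation p = 0.0153, adjusted p = 0.45) and a Spearman rho of 0.714 (exact p = 0.136, adjusted p = 0.8). Tumour 3 was lowest and tumour 1 highest for both genes. Without tumours 3 and 1, r was 0.267, and without tumour 3 alone it was 0.70, so the relation rests on those tumours. Ccl8 and Ccl3 ran opposite, with r = -0.881 (two-sided exact permutation p = 0.0278, adjusted p = 0.45) and rho = -0.771 (exact p = 0.103, adjusted p = 0.76). Without tumours 5 and 1 their r was -0.599, and it lay between -0.99 and -0.80 with each tumour left out in turn.

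Ccl8, the gene with the largest difference among the CC ligands, did not run with Saa3 (r = -0.203) or Cxcl13 (r = -0.337). Tumour 3 held the second highest Ccl8 and the lowest Saa3, and without it the r of Ccl8 and Saa3 was 0.685. Without tumour 1 instead, that r was -0.704, so its sign depends on which tumour is left out. The paralogues Ccl9 and Ccl6 had r = 0.76, and Ccl4 and Cxcl12 had r = 0.824, where tumour 6 was the brightest for both. Ccl9 and Cxcl10 had r = -0.794, with Cxcl10 at the floor in 2 tumours. Within the larger chip lot, whose 5 tumours are fewer than a tested correlation was given for, r was 0.93 for Cxcl13 and Saa3, -0.883 for Ccl8 and Ccl3 and -0.933 for Ccl9 and Cxcl10. Hybridization days 1, 2 and 3 hold 2, 3 and 1 tumours, too few for a value.

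**Figure D3:**
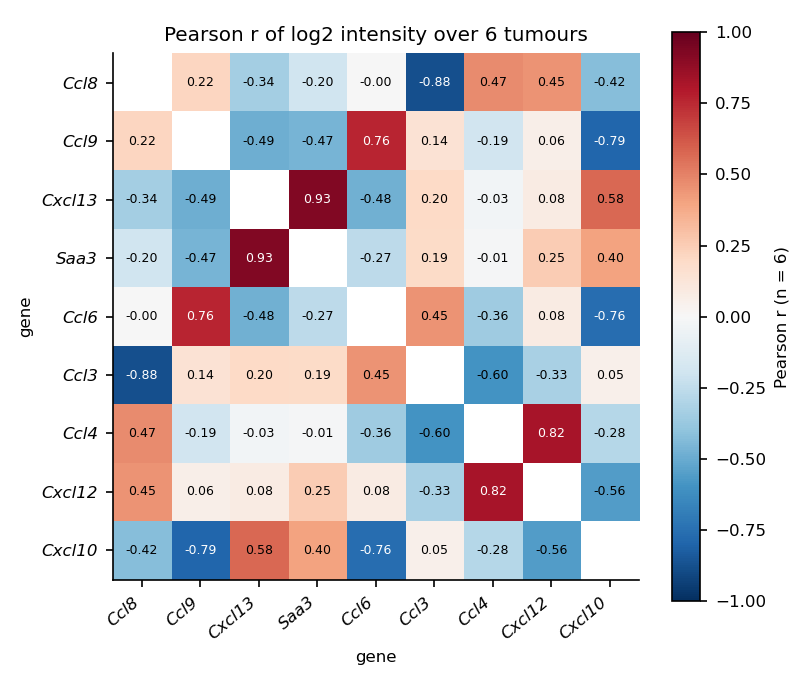
Pearson correlation of log2 intensity over the 6 tumours for each pair of 9 genes (colour and number in each square). Cxcl13 with Saa3 at 0.93 and Ccl8 with Ccl3 at -0.88 are the 2 pairs with an unadjusted p under 0.05; no pair had an adjusted p under 0.05.

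Among 6260 probe sets of other genes that were tested and above the floor in every tumour, the 5 most like each of 3 genes were read by Pearson r over the 6 tumours, as a description of arrays that share a scaling. Most like Saa3 were Rab1a (0.994), Slc11a1 (0.984), Thy1 (0.978), Rbm15 (0.976) and Mrps5 (0.976), and tumour 3 was the lowest tumour for each. Slc11a1, the metal transporter of the phagosome in macrophages, had 94.1 to 226.5 in the tumours, against 36.5 and 19.0 in the IkL/L samples and 43.3 and 37.1 in the WT samples. Rab1a, Thy1, Rbm15 and Mrps5 differed from WT by 0.15, -0.35, 0.01 and 0.44 on the log2 scale. None of these had an adjusted p under 0.05 (limma), and Thy1 is a thymocyte marker. Most like Cxcl13 were Galr1 (0.986), Padi2 (0.979), Entpd2 (0.968), Thy1 (0.966) and Lrmp (0.964), again with tumour 3 lowest for each. Most like Ccl8 were Smpd2 (0.987), Rnf167 (0.970), Mettl17 (0.967), Saysd1 (0.967) and Dhrs1 (0.962), with tumour 5 lowest and tumour 1 highest for each. All these genes were picked by their r from 6260 probe sets over only 6 tumours. High r and a like order of the tumours therefore follow from the choice.

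Of 29 other chemokine ligands listed, 16 were on the array and 6 passed the filter. Of these 6, 0 rose and 1 fell against WT thymocytes (Ccl25), with a median log2 difference of -1.04, beside -0.01 for all tested probe sets. None of the 16 had all tumours above all thymocytes, near the share of 3.36% among all non-control probe sets. The share called against WT among all tested probe sets was 1.88%. Ccl25, which thymic epithelium makes to attract thymocytes through Ccr9, had 15.8 at the lowest and 60.7 at the highest in the tumours, against 218.9 and 217.8 in the IkL/L samples and 534.0 and 224.0 in the WT samples. It fell by 3.26 ± 0.50 (SE) on the log2 scale against WT (adjusted p = 0.0125) and fell by 2.59 ± 0.50 against IkL/L (adjusted p = 0.0374, limma). The call against WT was lost without the first WT array (adjusted p = 0.172), and that against IkL/L without either IkL/L array (adjusted p = 0.244 and 0.238) and without tumour 1 (0.0661) or tumour 5 (0.0518). With chip lot or fluidics module as a block the adjusted p against WT was 0.0810 and 0.0885, and against IkL/L it was 0.177 and 0.132, with 0.151 for fluidics run. The summed intensity of 12 thymic epithelial markers, of which Ccl25 is 1, was 744.0 to 1646.2 in the tumours, 2031.9 to 5947.6 in IkL/L thymocytes and 4184.2 to 5685.4 in WT thymocytes. Ctsl alone had 249.5 to 666.6 in the tumours, 860.3 and 4722.6 in the IkL/L samples and 3904.0 and 3029.4 in the WT samples. The part of thymic epithelium in the Ccl25 difference was not tested.

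Of 20 chemokine receptors on the array, 6 passed the filter, with 0 that rose and 1 that fell against WT (Ccr7). The median log2 difference was -0.49, and 1.88% of all tested probe sets were called against WT. Ccr7, which leads mature thymocytes to the medulla, had 11.0 at the lowest and 76.1 at the highest in the tumours, against 306.7 and 410.8 in the IkL/L samples and 296.9 and 204.1 in the WT samples. It fell by 2.79 ± 0.52 (SE) against WT (adjusted p = 0.0266) and fell by 3.32 ± 0.52 against IkL/L (adjusted p = 0.0151, limma). The call against WT was lost without the first (adjusted p = 0.243) or the second WT array (0.138), and that against IkL/L without the first (0.113) or the second IkL/L array (0.154). With chip lot, day, module or run as a block Ccr7 was not called, at adjusted p of 0.136 to 0.298 against WT and 0.0906 to 0.646 against IkL/L. Ccr9 had 6.2 to 149.2 in the tumours, against 534.2 and 400.6 in the IkL/L samples and 805.6 and 388.3 in the WT samples, at an adjusted p of 0.105 against WT and of 0.0410 without tumour 1 (limma).

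Of 19 other acute-phase genes on the array, 8 passed the filter and 0 were called in either direction against WT or IkL/L thymocytes, with median log2 differences of 0.56 and 0.16 and 5 of 8 positive in each. With so few genes, a count of 0 is near the background share. Their summed intensity was 1136.0 to 2539.3 in the tumours, 1270.4 to 1519.6 in IkL/L thymocytes and 1033.4 to 1085.6 in WT thymocytes, so that all tumours were above both WT samples and overlapped the IkL/L samples. Hp, which encodes the haemoglobin-binding haptoglobin, had 131.9 to 543.2 in the tumours, against 220.2 and 160.7 in the IkL/L samples and 117.6 and 168.9 in the WT samples (adjusted p = 0.285 against WT, limma). Serpina3n, a serine protease inhibitor, had 106.4 to 490.9, against 233.8 and 189.9 in the IkL/L samples and 63.8 and 119.0 in the WT samples (adjusted p = 0.244 against WT, limma).

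Of 19 inflammatory cytokine and enzyme genes on the array, 5 passed the filter and 0 were called against either thymocyte group. With so few genes, 0 is near the share of all tested probe sets called, 1.88% against WT and 1.42% against IkL/L. Lta, the lymphotoxin that with its receptor induces Cxcl13 in lymphoid stroma, had 18.6 to 91.3 in the tumours, against 217.9 and 159.2 in the IkL/L samples and 291.1 and 208.0 in the WT samples (adjusted p = 0.0618 against WT, limma, and 0.0269 or 0.0268 without tumour 3 or tumour 6). On that probe set every tumour was below every thymocyte array. On the other probe set of Lta the groups overlapped, with 52.2 to 183.7 in the tumours, against 110.5 and 171.1 in the IkL/L samples and 107.7 and 138.0 in the WT samples (log2 difference from WT -0.47, adjusted p = 0.639, limma). Of 22 interferon-induced genes on the array, 16 passed the filter, with 0 that rose and 1 that fell against WT (Socs1) and a median of -0.09. Of the 22, Gbp3 and Ifi204 had all tumours above all thymocytes, and Socs1 had them all below, against 3.36% and 3.64% of all non-control probe sets. Socs1, an inhibitor of cytokine signalling, had 580.3 to 1466.1 in the tumours, against 3151.8 and 2379.4 in the IkL/L samples and 2998.0 and 2655.5 in the WT samples. It fell by 1.61 ± 0.32 (SE) against WT (adjusted p = 0.0371, limma), a call lost without the first (0.274) or the second WT array (0.210), or without tumour 3 (0.0571) or tumour 5 (0.0716). It was also lost with each of the 4 batch blocks (0.0677 to 0.221) and with only those 2 groups in the fit (0.0581).

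**Figure D4:**
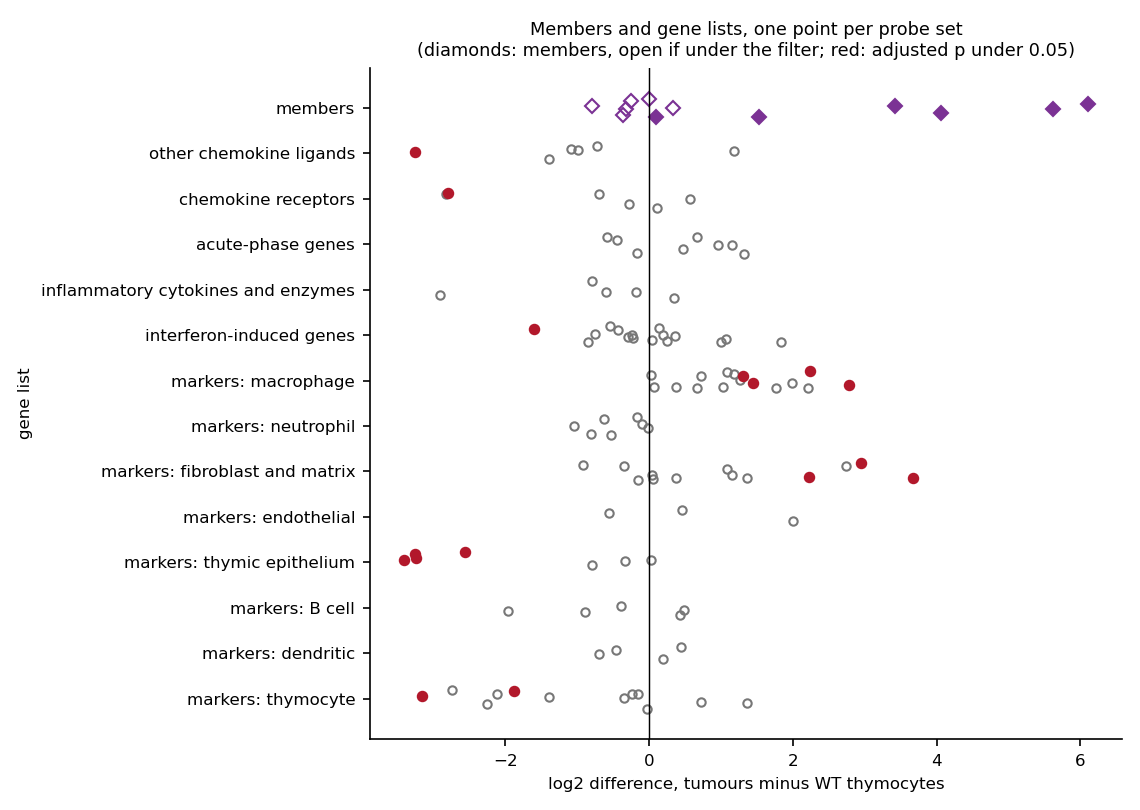
Log2 difference, tumours minus WT thymocytes, of the 12 probe sets of the described genes (diamonds, open where the filter was not passed) and of the tested genes of 13 lists (circles, 1 per gene, red where the adjusted p was under 0.05). The 4 picked genes lie between 3.42 and 6.10, and no other chemokine ligand, receptor or acute-phase gene is red on the right-hand side.

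Macrophage markers were higher in the tumours beside the picked genes. Their summed intensity over 21 genes was 10675.7 to 21680.3 in the tumours, 3995.6 and 4497.2 in the IkL/L samples and 3982.9 and 4079.0 in the WT samples. Of the 21, 8 had all tumours above all thymocytes, 1 (Fcgr3) had them all below, and 2 were at the floor on all thymocyte arrays. Among all non-control probe sets, 3.36% had all tumours above and 3.64% had them all below. Of 16 that passed the filter, 4 rose against WT (C1qa, C1qb, C1qc and Apoe) and 0 fell, with a median log2 difference of 1.23 and all 16 positive. Against IkL/L thymocytes 6 rose and 0 fell, with a median of 1.33. The share called in either direction among all tested probe sets was 1.88% against WT and 1.42% against IkL/L. Tumour 1, the brightest for Ccl8, Cxcl13 and Saa3, also had the highest macrophage sum, while tumour 3, low for Cxcl13 and Saa3, had 13238.2, within the range of the others. Apoe alone made up 7418.9 of the sum in tumour 3 and 10357.7 in tumour 1, so 1 gene weighs heavily in the order of the tumours. The part of these cells in the values of Ccl8, Ccl9, Cxcl13 and Saa3 was not tested.

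C1qa, C1qb and C1qc encode the chains of complement C1q, which macrophages make. C1qb had 772.8 at the lowest and 1729.1 at the highest in the tumours, against 193.2 and 161.4 in the IkL/L samples and 298.2 and 183.1 in the WT samples. Its log2 difference was 2.24 ± 0.33 (SE) from WT (adjusted p = 0.0105, limma) on the brighter of 2 probe sets, and -0.01 on the other (adjusted p = 0.991). Apoe, the lipid carrier of macrophages, had 3669.8 at the lowest and 10357.7 at the highest in the tumours, against 1799.9 and 1196.9 in the IkL/L samples and 771.7 and 1164.5 in the WT samples. Its log2 difference was 2.78 ± 0.36 from WT (adjusted p = 0.00700, limma). The count of 4 macrophage genes fell to 0 without the first WT array, to 1 without the second, to 2 without tumour 2 or tumour 5, and to 0 with chip lot, hybridization day or fluidics run as a block. The count of 6 against IkL/L fell to 0 without either IkL/L array and with chip lot, fluidics module or fluidics run as a block, and to 2 with hybridization day as a block. The marker sum in tumour 6, the only tumour in the lot of the 4 thymocyte arrays, was 13406.2, above theirs. Apoe made up 7630.9 of it, and the part of the chip lot was not tested.

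Of 13 tested fibroblast and matrix genes, 3 rose against WT (Fn1, Pdgfrb and Mgp) and 0 fell, a count that was 0 without either WT array, 1 without tumour 1, 2 or 5, and 0 with any batch as a block. The summed intensity of the 19 on the array was 3389.4 to 6204.4 in the tumours, 3178.5 and 3893.7 in the IkL/L samples and 2463.5 and 3057.5 in the WT samples. Neutrophil markers did not separate the groups, at 639.6 to 3912.0 in the tumours, 1934.7 and 5251.3 in the IkL/L samples and 1571.6 and 3093.5 in the WT samples, with 0 of 7 called. Of 3 endothelial and 4 dendritic genes tested, 0 were called against WT or IkL/L thymocytes. Among all tested probe sets 1.88% were called against WT and 1.42% against IkL/L, so 0 in such short lists is near the background. Of 7 thymic epithelial genes tested, 0 rose and 4 fell against WT (Krt8, Krt18, Ctsl and Ccl25), and of 12 thymocyte genes 0 rose and 2 fell (Rag1 and Rag2, the recombinase of antigen receptor genes). Without the first WT array, or with chip lot or fluidics module as a block, both counts were 0. The thymocyte count was also 0 without the second WT array and with day or run as a block, and 1 without tumour 5 and 5 without tumour 6, while the epithelial count was 2 without the second WT array or with run as a block. With no filter on dim probe sets both counts were 1. The part of these cell types in the picked genes was not tested.

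**Figure D5:**
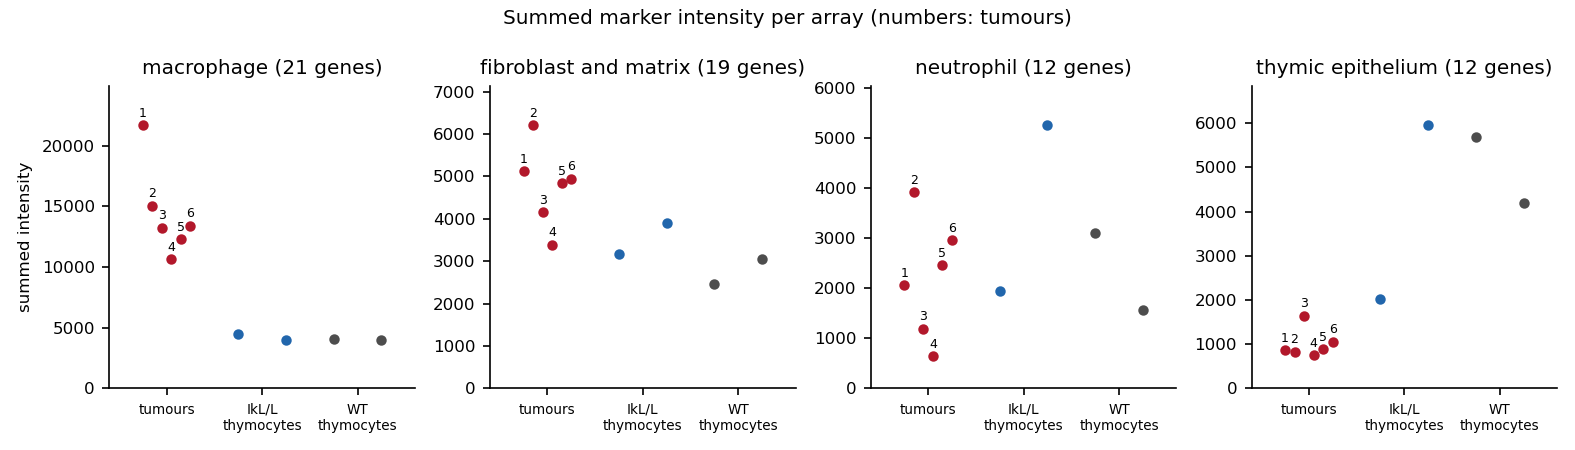
Summed intensity of the markers of 4 cell types on each array, with tumours numbered, then IkL/L and WT thymocytes. The macrophage sum of every tumour, from 10675.7 upward, is above that of every thymocyte array, the thymic epithelial sum of every tumour is below, and the neutrophil sums overlap.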

How the data were processed

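Total RNA of 10 samples had been hybridised to MG_U74Av2 arrays. The deposited table holds 1 intensity per probe set and array; the software that computed it is not given in the sources used here. With the top and bottom 2% of values trimmed, array means were 300.17 to 300.21, so the deposited intensities were taken as already scaled and were not scaled again. Of 12488 probe sets 66 were controls, and of the rest 10833 had 1 gene symbol, 396 several and 1193 none; 10817 matched the RefSeq gene table of GRCm38.p6 and 0 symbols changed through their Entrez identifier. No column belonged to another sample, and 0 pairs of arrays were identical.

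Values under 16, the 20th percentile, were raised to it and log2 was taken. Probe sets above the array median on at least 2 arrays entered a fit of 3 group means by limma (version 3.58.1, R 4.3.3; residual df 7, prior df 3.167). Benjamini-Hochberg adjustment ran over 7172 probe sets. Folds are antilogs of mean log2 differences. Genes that did not pass the filter have values from a fit to all 12422 probe sets. Correlations used Python 3.11.15 and exact permutation. Both procedures were tested on simulated data.

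Every probe set of the 10 genes was read. Of each list, called genes and up to 3 with the smallest p were eligible to be named, of which a part is printed. The members and lists were chosen with earlier results of these data known. The gene with several probe sets is represented in lists and correlations by the one with the highest mean. The scanner files gave the chip lot, the day of hybridization and the fluidics module, and arrays started no more than 10 minutes apart were called a fluidics run. Alternatives were another floor, a pseudocount of 16, quantile normalization, other filters, batch blocks, 1 lot or day alone, 2 groups alone, and leaving out each array. Fluidics run as a block was chosen after seeing the data, as were the recounts of the marker lists. The NF-κB and interferon-type promoter patterns replaced longer forms after those had been searched.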

Additional observations from a re-analysis of the deposited data

Results flagged for a closer look

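Saa3 in tumour 3 was far from the other tumours. On the log2 scale its gap to the nearest other tumour was 0.6271 of the whole range of the 6 tumours, just above Dixon's 95% critical value of 0.625. Its intensity there was 71.8, against 782.6 to 3239.6 in the other tumours. Of 11 probe sets examined, 1 was flagged in this way; chance flags about 1 in 20 groups, and a further probe set at the floor in all tumours was not examined. Tumour 3 was also the only one hybridised on its day.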

How the results depend on the processing

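No paired analysis was possible because the labels share no replicate number between groups and those used here follow the order of deposition. Of the 6 genes not picked, 2 passed the filter, and the count called between tumours and WT thymocytes was 0. That count was 1 (Ccl6) with the stricter filter, where fewer probe sets were tested, and 1 with only tumours and WT thymocytes in the fit. It was 0 with each array left out. The other alternatives run left it at 0, as did all of those for tumours against IkL/L thymocytes, for IkL/L against WT thymocytes and for the pairs over tumours. The 2 tumours farthest from the median differ from pair to pair, so no count of pairs was made without them, and the larger lot alone is the same as leaving out tumour 6. Between tumours and WT, the log2 difference of Ccl3 was -0.065 with a floor of 50, -0.36 with fluidics module as a block, and -0.65 to 0.84 with each array left out, among them -0.01 without tumour 5 and -0.65 without the first WT array. Between IkL/L and WT thymocytes, leaving out each array gave -1.46 to 0.072 for Ccl3 (0.05 without the second WT array, 0.072 without the second IkL/L array), -0.0417 to 1.41 for Ccl6 (lowest without the first IkL/L array), -0.10 to 2.30 for Ccl8 and -0.68 to 1.63 for Ccl9 (each lowest without the second IkL/L array, and Ccl9 -0.22 without the first WT array). Ccl9 was also -0.22 with fluidics run as a block and Saa3 -0.97 with fluidics module as a block; the cause was not tested. Ccl8, Ccl9, Cxcl13 and Saa3 stayed higher in tumours than in either thymocyte group under every alternative run. They were picked for that rise on these same arrays, so this direction was set by the choice and is no test. The number of probe sets called between tumours and WT was 135, and 33, 52, 49 and 9 with lot, day, module and run as a block, 22 and 26 within lot 1 and day 1, 77 with no filter, 75 without tumour 5, 221 without tumour 6, and 14 and 29 without the first or the second WT array. Against IkL/L thymocytes it was 102, and 17, 42, 21 and 0 with those blocks, 8 and 20 within lot 1 and day 1, 156 with a floor of 50, 163 with quantile normalization, 332 without tumour 6, and 7 and 23 without the first or the second IkL/L array. Between IkL/L and WT it was 1, and 0 to 2 in all alternatives but that with no filter, where it was 15. Dim probe sets such as Ccl2, Cxcl10 and 1 of Cxcl12 limit what these arrays can show.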
